A study of Mus musculus with 2 samples.

Results

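Chromatin remodelers are ATP-driven machines that slide, evict or exchange nucleosomes and so set which stretches of DNA are open to transcription. The genes described here encode the subunits of the SWI/SNF complex and the motor proteins of the CHD, ISWI and INO80 families. They were taken by symbol as a list of 42 genes, and all 42 were found among the 55416 genes of the count table. SWI/SNF exists in 3 forms, which share a core. Canonical BAF carries Arid1a or Arid1b with a Dpf protein, PBAF carries Arid2, Pbrm1, Phf10 and Brd7, and non-canonical BAF carries Brd9 with Bicra or Bicral and lacks Smarcb1. The list held 16 shared subunits, 5 canonical BAF, 4 PBAF and 3 non-canonical BAF members, together with 9 CHD, 2 ISWI and 3 INO80 genes.

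Whole tumor tissue was sequenced (bulk RNA-seq) from 2 rhabdoid tumors of Dppa3-cre::Smarcb1 Fl/+ mice on a C57BL/6 background, 1 intracranial at the trigeminal nerve and 1 extracranial in the facial, maxillar region, both classified as MYC. Cre was expressed from the Dppa3 locus, which is active in primordial germ cells, and 1 Smarcb1 allele was floxed, while the other was wild type. The ages of the animals were not given in the sources used here. Normal tissue and tumors without the floxed allele were not analysed here. With 1 library per location there was no replicate error. Intervals given below are exact 95% intervals that cover counting error alone, and a difference beyond them separates these 2 libraries, not the 2 locations.

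The libraries held 34545846 (intracranial) and 26915696 (extracranial) counts. Library sizes were scaled by TMM (trimmed mean of M-values), and levels are given as CPM, the count of a gene relative to the scaled size of its library, and 3 counts, taken as the floor, were equal to 0.0863 and 0.112 CPM. A member was called where the whole interval of its ratio, extracranial over intracranial, lay beyond 1.5-fold. Ratios were computed for genes with 10 or more counts over both libraries, which 40 of the 42 members reached. Bulk RNA does not separate fewer cells of a type from less RNA per cell. The pieces of tissue differed in content. Keratinocyte genes, which mark stratified epithelium and not nerve or brain, summed to 25330 CPM in the intracranial library and to 3.10 CPM in the extracranial one. With 1 library per location no result could be given without the intracranial library. The names intracranial and extracranial follow the localization labels of the samples. Whether these labels fit the pieces was not tested, and each direction given below rests on them.

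Smarcb1 (ENSMUSG00000000902), the targeted gene, encodes a core subunit of canonical BAF and PBAF that contacts the nucleosome. It was measured at 365 counts in the intracranial library, which is 10.5 CPM (9.45 to 11.6), and at 530 counts in the extracranial library, which is 19.8 CPM (18.2 to 21.6). Transcripts assigned to the targeted gene were thus present in both pieces, and the level was 1.89-fold higher in the extracranial library (log2 ratio 0.91, 0.72 to 1.11). By staining, the authors reported loss of Smarcb1 protein in tumors of this model at the trigeminal nerve and in the maxillary region. Protein was not measured here, and whether the same pieces were sequenced was not given in the sources used here. Levels of different genes are compared per kilobase of summed exon or, where named, of the longest transcript. Per kilobase of summed exon, Smarcb1 ranked 5 from the lowest of 28 SWI/SNF members in the intracranial and 8 from the lowest in the extracranial library. The 4 genes below it in the intracranial library were Actl6b, Dpf1, Dpf3 and Bcl7a. Both ranks rest on annotated lengths, which for Smarcb1 were 7930 bases of summed exon and 7441 in the longest transcript. The length of the transcripts present was not measured. If they were shorter, Smarcb1 would rank higher, so the ranks do not establish a low level. Set against the summed counts of the other 27 SWI/SNF members, which frees the ratio from library scaling, Smarcb1 was 1.65-fold higher in the extracranial library (log2 0.72, 0.52 to 0.92). Against Smarce1, another subunit of canonical BAF and PBAF, the excess was 1.34-fold (log2 0.42, 0.21 to 0.63). These comparisons with other subunits were chosen after the values were seen. Markers of macrophages, a cell type other than the tumor cells, were 2.26-fold higher in the same library as a sum (5862 and 13219 CPM, 10 of 10 genes called). Lists of other cell types went both ways. Endothelial and B cell sums were also higher there, while keratinocyte (25330 and 3.10 CPM) and skeletal muscle sums (59.9 and 11.5 CPM) were lower. The part of such cells in the Smarcb1 level was not tested. A gene count cannot tell transcripts of a recombined allele from those of an intact one.

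Of the 40 members with a ratio, 32 lay within 1.5-fold between the libraries, and the median of the absolute log2 ratio was 0.25, against 0.44 over all 21977 genes tested and 0.35 over the 13036 protein-coding genes with 100 or more counts. Called were 8 members, 5 higher in the extracranial and 3 higher in the intracranial library, while 23.8% of all genes tested were called. The share of members called was therefore close to the background. Among the 13036 deeply counted protein-coding genes 26.6% were called. In the extracranial direction alone the background was 9.99%, and in the intracranial direction 13.8%. The 5 were Smarcb1, Bcl7a, Dpf1, Chd5 and Smarca1, and the 3 were Smarcd3, Chd3 and Chd9.

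**Figure D1:**
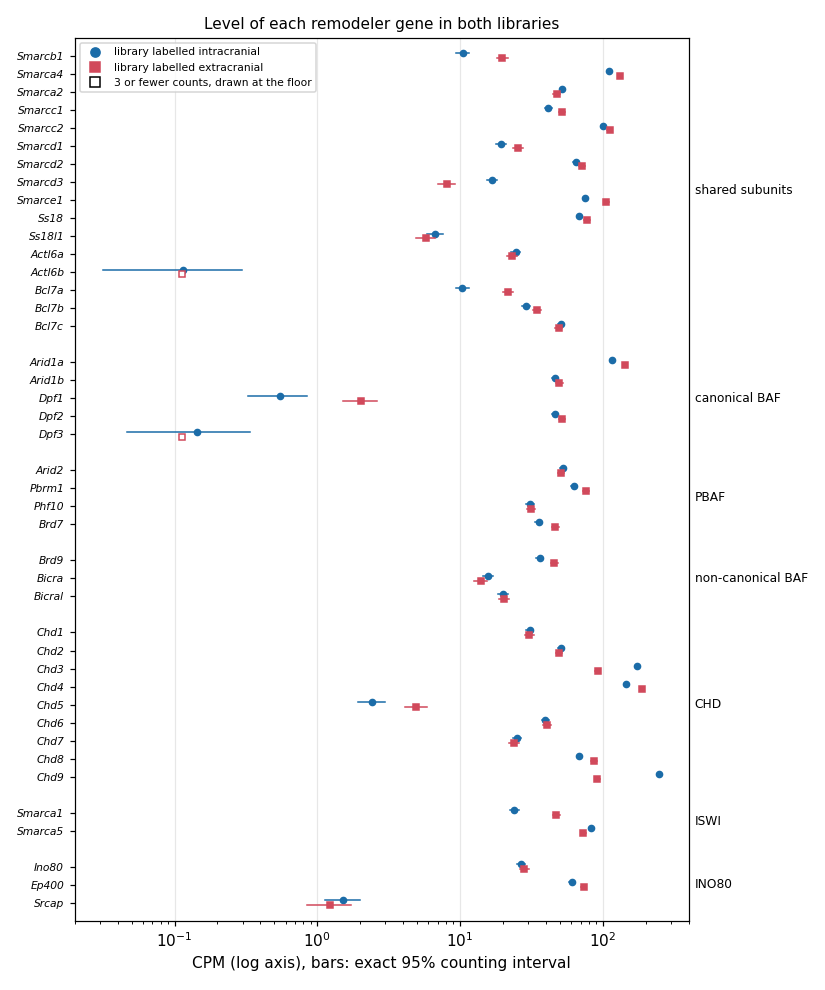
Level of each of the 42 genes in both libraries, in CPM on a log axis, with exact 95% counting intervals; circles are the intracranial and squares the extracranial library, and open symbols stand for 3 or fewer counts. CPM is not scaled to gene length, so the symbols are to be compared within a gene: they lie close together for most genes and apart for Smarcb1 (10.5 and 19.8 CPM) and Chd9 (250.1 and 91.9 CPM).

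With a looser limit, an interval that excludes 1-fold, 26 members differed, 21 of them higher in the extracranial library and 5 higher in the intracranial one. Over all genes tested 61.4% did so, 29.2% in the extracranial and 32.2% in the intracranial direction, and 74.6% of the deeply counted protein-coding genes did. No member was called beyond 4-fold, whereas 7.19% of all genes were, 1.78% higher in the extracranial and 5.41% higher in the intracranial library, and 8.16% of the protein-coding genes were. The median log2 ratio was 0.15 over the members and -0.04 over all genes tested, and it stayed between 0.13 and 0.19 for the members under the other scalings, so the offset of the members was small against the 1.5-fold limit. Proliferation markers were also slightly higher in the extracranial library (median log2 ratio 0.37, 11 of 13 genes with an interval above 1-fold), and whether the offset of the remodelers goes with them was not tested.

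**Figure D2:**
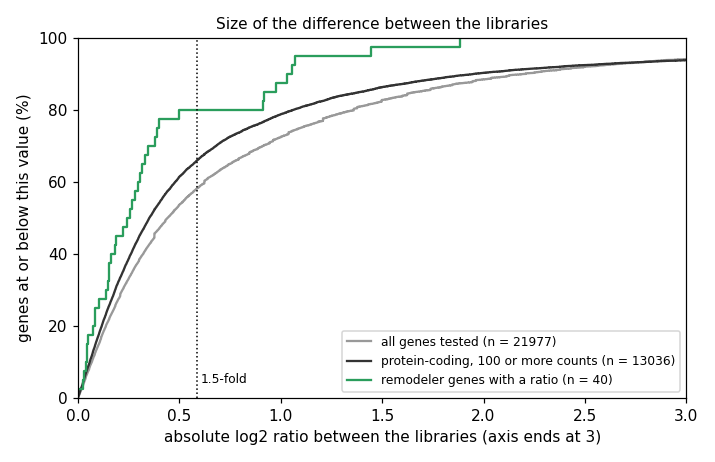
Cumulative share of genes (y axis, percent) against the absolute log2 ratio between the libraries (x axis) for all genes tested, for deeply counted protein-coding genes and for the 40 remodeler genes with a ratio. The curve of the remodeler genes reaches 80% at the 1.5-fold line, where the other curves stand at 58.1% and 65.8%.

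Promoter sequences were looked at as a feature that the choice of genes had not used. RefSeq windows, each from 250 bases before to 50 after a start (GRCm38.p6), matched 32 of the 42 genes with 37 windows. Member windows held a median of 32 CG dinucleotides against 7 over all 32851 windows, and 3 of the 37 held fewer than 10, against 56.5% of all. The windows of all genes were taken whether or not the genes were expressed here. No background of expressed or protein-coding genes was computed for the promoters, so the gap is not read as particular to remodelers. The E-box CACGTG, the letters bound by MYC and MAX, was in 8.11% of member windows and 7.15% of all on either strand, in Bcl7b, Bcl7c and Pbrm1. CCGGAA, the core of ETS sites, was in 27% of member and 14.9% of all windows, counted on both strands. This word itself holds a CG, windows were not matched for CG content, and Brd9 entered with overlapping windows. CCAAT, the letters bound by NF-Y, was in 27% of member and 37.4% of all windows on either strand. The 250 bases before the start are shown for 4 called genes, read 5′ to 3′ on the strand of the gene, with CG dinucleotides in capitals, to show that genes called in either direction included CG-rich windows (Smarcd3 with 38, Smarcb1 with 21 and Chd9 with 16) and a poor one (Smarca1 with 6, on the X chromosome).
Smarcb1 (chr10:75921615-75921864, minus strand): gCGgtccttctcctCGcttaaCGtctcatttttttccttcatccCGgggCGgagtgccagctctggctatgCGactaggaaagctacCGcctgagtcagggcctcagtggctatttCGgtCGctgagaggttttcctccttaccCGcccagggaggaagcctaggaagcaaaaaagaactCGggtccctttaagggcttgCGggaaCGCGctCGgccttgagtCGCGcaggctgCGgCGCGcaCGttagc
Smarcd3 (chr5:24602003-24602252, minus strand): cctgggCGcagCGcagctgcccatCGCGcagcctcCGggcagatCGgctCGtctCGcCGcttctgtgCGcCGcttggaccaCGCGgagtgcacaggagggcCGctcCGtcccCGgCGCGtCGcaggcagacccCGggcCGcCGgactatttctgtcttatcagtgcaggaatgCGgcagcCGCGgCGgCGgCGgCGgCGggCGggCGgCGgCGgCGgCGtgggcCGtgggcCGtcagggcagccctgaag
Smarca1 (chrX:47892614-47892863, minus strand): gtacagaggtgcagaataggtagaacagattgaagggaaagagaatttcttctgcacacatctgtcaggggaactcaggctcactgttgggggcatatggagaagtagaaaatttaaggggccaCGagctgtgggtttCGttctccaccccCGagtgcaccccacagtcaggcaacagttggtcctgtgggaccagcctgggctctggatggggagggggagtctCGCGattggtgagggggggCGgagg
Chd9 (chr8:90828585-90828834, plus strand): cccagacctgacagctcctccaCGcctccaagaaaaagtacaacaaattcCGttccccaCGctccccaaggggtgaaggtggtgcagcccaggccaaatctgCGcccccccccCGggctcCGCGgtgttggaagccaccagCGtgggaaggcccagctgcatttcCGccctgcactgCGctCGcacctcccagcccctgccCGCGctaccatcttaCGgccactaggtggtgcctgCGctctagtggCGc
A second RefSeq start of Chd9 held 1 CG dinucleotide in its whole window. Gene counts are summed over starts, so they do not tell which start the Chd9 reads came from.

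Among the shared subunits, the motor proteins come first. Smarca4 (Brg1), the ATPase found in all 3 forms, had 3859 and 3516 counts in the intracranial and extracranial library, respectively, and its paralog Smarca2 (Brm) had 1815 and 1272. Smarca4 was slightly higher in the extracranial library (log2 ratio 0.24, 0.18 to 0.31) and Smarca2 slightly lower (-0.14, -0.24 to -0.03). Per kilobase, Smarca4 exceeded Smarca2 by 4.69-fold in the intracranial and 6.09-fold in the extracranial library. With the length of the longest transcript in place of the summed exons the excess was 1.97-fold and 2.57-fold, because Smarca2 has 14269 bases of summed exon but 5921 in its longest transcript. Smarca4 was thus the more abundant ATPase in both libraries with either length.

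The scaffold proteins Smarcc1 and Smarcc2, around which the core assembles, were measured at 5.33 and 18.1 CPM per kilobase in the intracranial library and at 6.63 and 20.1 CPM per kilobase in the extracranial library. Smarcc2 was the higher of the pair in both. Smarce1, a DNA-binding subunit of canonical BAF and PBAF, had 2616 and 2843 counts, and its log2 ratio of 0.50 (0.42 to 0.57) lay just inside the 1.5-fold limit. The fusion partner in synovial sarcoma, Ss18, was measured at 68.5 and 77.7 CPM, and its paralog Ss18l1 at 6.71 and 5.76 CPM. Ss18l1, which serves in neurons, differed by less than counting error between the libraries (-0.22, -0.52 to 0.08).

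Of the 3 Smarcd paralogs, which link the core to transcription factors, Smarcd2 was the highest per kilobase, at 18.0 and 20.0 CPM per kilobase. Smarcd1 followed at 4.83 and 6.36 CPM per kilobase. Smarcd3 (Baf60c), known for its role in heart and skeletal muscle, had 583 counts in the intracranial and 216 counts in the extracranial library, 16.8 CPM (15.4 to 18.2) and 8.07 CPM (7.03 to 9.22). It was the shared subunit with the strongest excess in the intracranial library, at 2.08-fold (log2 ratio -1.06, -1.29 to -0.83). Skeletal muscle markers moved the same way, with a sum of 59.9 and 11.5 CPM, 9 of 9 genes with a ratio called higher in the intracranial library, and 6 of 10 at or under 3 counts in the extracranial one. Their part in the difference was not tested. In the annotation used here, 48.2% of the exon bases of Smarcd3 lie opposite exons of Chpf2 and a microRNA gene on the other strand, so its counts depend on how the counting treated strand. Chpf2 itself, at 1120 and 756 counts, differed much less (-0.19, -0.33 to -0.06).

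The actin-like subunit Actl6a, present in dividing progenitors, was counted 854 and 620 times and differed by less than counting error (-0.09, -0.24 to 0.07). Its neuronal counterpart Actl6b had 4 and 0 counts, and 0 counts allow a level of up to 0.138 CPM by the exact interval. Actl6a was thus the main form at the transcript level in both libraries. The neuron marker list summed to 89.6 and 140.4 CPM, but its 10 genes went both ways, with a median log2 ratio of -0.32. Called higher in the extracranial library were 3 (Stmn2, Syt1 and Nefl), and called higher in the intracranial one were 5 (Tubb3, Snap25, Map2, Elavl3 and Elavl4), of which Elavl3 and Elavl4 were at or under 3 counts in the extracranial library. The part of neurons in the levels of the members known from neurons, Ss18l1, Actl6b, Dpf1, Chd5 and Smarca1, was not tested.

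The Bcl7 proteins are small subunits of all 3 SWI/SNF forms. Bcl7a had 360 counts in the intracranial and 583 counts in the extracranial library, 10.4 CPM (9.32 to 11.5) and 21.8 CPM (20.1 to 23.6), and was called as 2.10-fold higher in the latter (log2 ratio 1.07, 0.88 to 1.27). Bcl7b (29.1 and 34.7 CPM) and Bcl7c (50.9 and 49.3 CPM) were not called. Bcl7a was the lowest of the 3 per kilobase in each library, at 1.09 and 2.30 CPM per kilobase against 6.83 or more for the others. B cell markers, which include immunoglobulin genes, summed to 19.7 and 333.4 CPM, and Ighm alone made up 13.2 and 301.5 CPM. Bcl7a is well known in B lymphocytes, and the part of these cells in its difference was not tested.

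**Figure D3:**
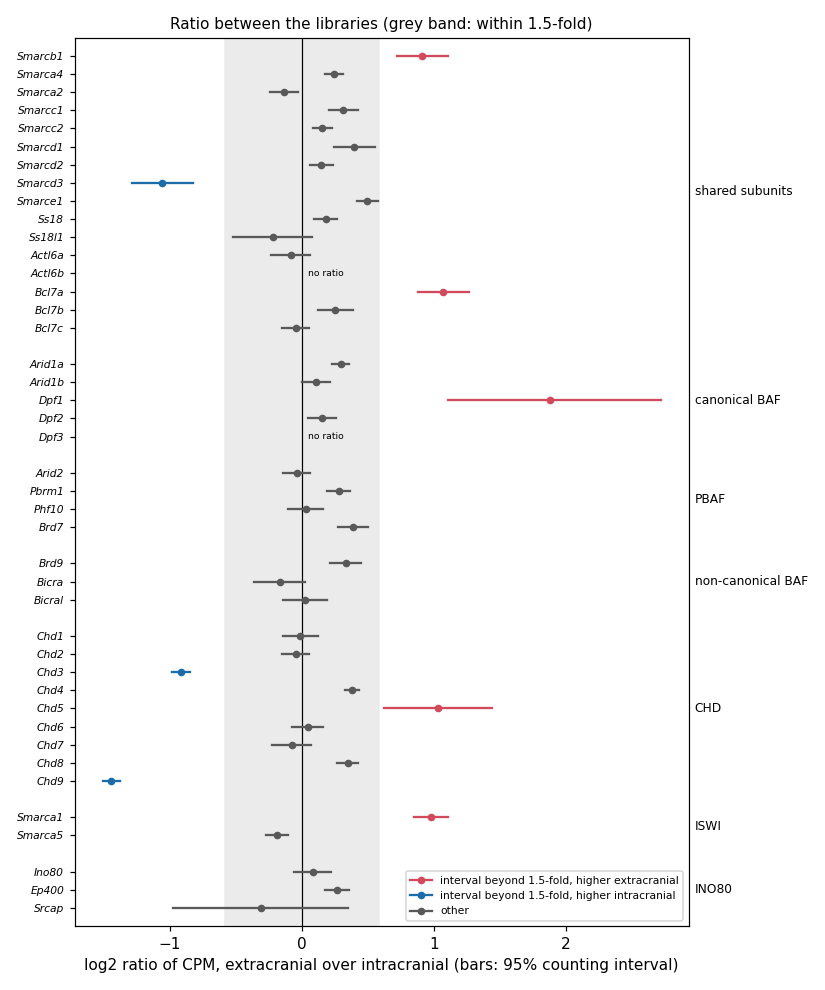
Log2 ratio of CPM, extracranial over intracranial, for the 40 genes with a ratio, by complex, with 95% counting intervals; the grey band marks 1.5-fold. The 5 red genes lie wholly to the right of the band and the 3 blue genes wholly to its left, with Chd9 at -1.44 and Dpf1 at 1.88 as the ends of the range.

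In canonical BAF, the DNA-binding subunits Arid1a and Arid1b were both abundant. Arid1a had 4045 and 3826 counts, 116.4 and 143.0 CPM, and a log2 ratio of 0.30 (0.23 to 0.36). Arid1b had 1605 and 1329 counts and differed by less than counting error (0.10, 0.00 to 0.21, with the lower bound just below 0). Arid1a exceeded Arid1b per kilobase by 2.77-fold and 3.16-fold.

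The Dpf proteins bind modified histone tails. Dpf2, the ubiquitous member, had 1621 and 1389 counts. Dpf1, which serves in neurons, had 19 counts in the intracranial and 54 in the extracranial library, 0.547 CPM (0.329 to 0.854) and 2.02 CPM (1.52 to 2.63). Its ratio of 3.69-fold was the highest of all members (log2 1.88, 1.11 to 2.72) and rested on the fewest counts of the called genes. Dpf3, known from heart and skeletal muscle, had 5 and 1 counts and was given no ratio. Dpf2 was therefore the main Dpf gene in both libraries, with a level per kilobase 70.6-fold and 21.3-fold that of Dpf1.

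None of the 4 PBAF members was called. Pbrm1, which binds acetylated histones through its bromodomains, had 2192 and 2051 counts (log2 ratio 0.28, 0.19 to 0.37), and Brd7 had 1238 and 1248 (0.39, 0.27 to 0.50). Arid2 (1823 and 1368 counts) and Phf10 (1074 and 844) differed by less than counting error. None of the 3 non-canonical BAF members was called either. Brd9, a bromodomain protein on which cells that lack Smarcb1 are known to depend, had 1261 and 1222 counts (0.33, 0.22 to 0.45), while Bicra (546 and 375) and Bicral (697 and 546) differed by less than counting error.

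Sums of the defining subunits of each form were set side by side, free of library scaling, a choice made after the values were seen. Arid1a and Arid1b replace each other in a complex, whereas Arid2 and Pbrm1 occur together, as does Brd9 with Bicra or Bicral. The sums thus count unlike numbers of subunits per complex, and the balances below do not give the proportions of the forms. Arid1a and Arid1b together exceeded Arid2 and Pbrm1 together by 1.15-fold per kilobase in the intracranial library and 1.22-fold in the extracranial one. The ratio of their summed counts, without lengths, was 1.41 and 1.51 and differed by a log2 of 0.10 (0.01 to 0.19). The balance of PBAF to the non-canonical subunits Brd9, Bicra and Bicral was 1.19 per kilobase in each library. In summed counts it was 1.60 in each (log2 difference -0.01, -0.11 to 0.10). Transcripts of all 3 forms were thus present in both libraries, and protein and assembly were not measured.

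Of the 8 called genes, 3 were CHD genes. CHD proteins carry paired chromodomains next to their motor, and Chd3, Chd4 and Chd5 are the alternative motors of the NuRD complex, which joins remodeling to histone deacetylation. Chd4 had 5044 counts in the intracranial and 5057 in the extracranial library (log2 ratio 0.38, 0.32 to 0.44). Chd3 had 6054 and 2474 counts, 174.2 CPM (169.9 to 178.7) and 92.5 CPM (88.8 to 96.2), and was 1.88-fold higher in the intracranial library (-0.91, -0.98 to -0.85). The order of the pair differed, since the level of Chd4 per kilobase was 0.877 times that of Chd3 in the intracranial and 2.15 times that of Chd3 in the extracranial library. Chd5, the motor of NuRD in neurons, had 84 and 132 counts and was 2.04-fold higher in the extracranial library (1.03, 0.62 to 1.44), at 0.515 CPM per kilobase or less.

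Chd9, a large protein related to Chd6, Chd7 and Chd8, had 8690 counts in the intracranial and 2460 in the extracranial library. These are 250.1 CPM (244.9 to 255.4) and 91.9 CPM (88.3 to 95.6), a 2.72-fold excess in the intracranial library (log2 ratio -1.44, -1.51 to -1.38). It was the only member called beyond 2-fold in that direction, where 9.77% of all genes tested were called. Dpf1 was called beyond 2-fold in the other direction, where the background was 5.86%. In either direction 15.6% of all genes and 17.2% of the deeply counted protein-coding genes were called beyond 2-fold. The balance of Chd9 with each of its 3 relatives differed between the libraries beyond 1.5-fold. Chd6 (1377 and 1094 counts, 0.04, -0.07 to 0.16) and Chd7 (878 and 642, -0.07, -0.22 to 0.07), the gene mutated in CHARGE syndrome, differed by less than counting error. Chd8 was higher in the extracranial library (2377 and 2328 counts, 0.35, 0.26 to 0.43). Chd9 exceeded Chd8 per kilobase in the intracranial library, with Chd8 at 0.383 of its level, and lay below it in the extracranial one, with Chd8 at 1.33 of its level.

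Chd1 and Chd2, which act at transcribed genes, had 1072 and 820 counts and 1777 and 1326 counts, and both differed by less than counting error. Over the 9 CHD genes the median log2 ratio was -0.01, which turned to 0.01 with DESeq2 size factors, so no direction is given for the family. Beside the differences of Chd3 and Chd9, the keratinocyte list had the widest gap of the 10 marker lists. All 10 of its genes were called higher in the intracranial library, and in the extracranial one 7 of the 10, Krt5, Krt14 and Trp63 among them, had 3 or fewer counts. The part of epithelial cells in the levels of Chd3 and Chd9 was not tested.

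**Figure D4:**
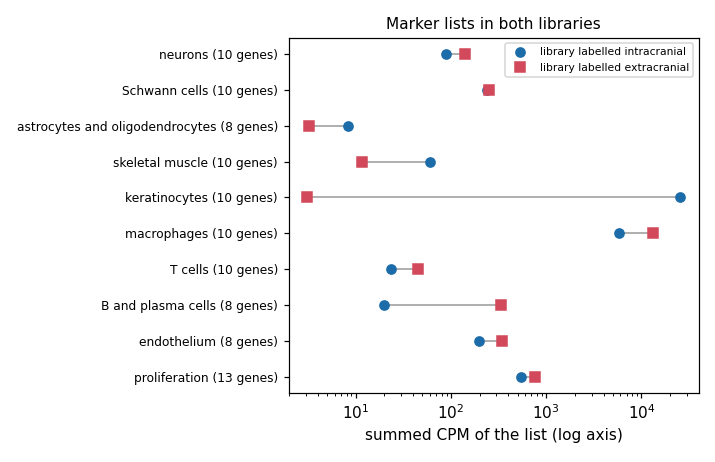
Summed CPM (log axis) of 10 marker lists in the intracranial (circles) and extracranial (squares) library. Keratinocyte and skeletal muscle markers were higher in the intracranial library, macrophage, B cell and endothelial markers in the extracranial one, and the Schwann cell list had nearly equal sums of 241.1 and 249.4 CPM.

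ISWI motors space nucleosomes evenly. Smarca5 (Snf2h), the form of most dividing cells, had 2899 and 1959 counts, slightly higher in the intracranial library (log2 ratio -0.19, -0.27 to -0.11). Smarca1 (Snf2l), better known from differentiating neurons, had 837 counts in the intracranial and 1270 in the extracranial library, 24.1 CPM (22.5 to 25.8) and 47.5 CPM (44.9 to 50.1). It was called as 1.97-fold higher in the latter (0.98, 0.85 to 1.11). The excess of Smarca5 over Smarca1 per kilobase was 2.72-fold in the intracranial and 1.21-fold in the extracranial library.

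The INO80 family exchanges histone variants such as H2A.Z. Ino80 had 929 and 758 counts (log2 ratio 0.08, -0.06 to 0.22), and Ep400, the motor of the TIP60 complex, had 2123 and 1969 (0.27, 0.18 to 0.36). Srcap, which deposits H2A.Z, had only 53 and 33 counts, 0.0966 and 0.0781 CPM per kilobase, and its ratio was within counting error (-0.31, -0.98 to 0.35). In the annotation used here, 61.7% of its exon bases are shared with the predicted gene Gm42715 on the same strand, which itself had 59 and 55 counts. How reads over both genes were counted was not given in the sources used here, so the low count of Srcap may leave out reads of this gene.

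Related genes were next compared with each other in 27 fixed pairs. The balance within a pair is free of library scaling and, between libraries, of gene length. For 24 pairs both genes had more than 3 counts in each library. The balance differed beyond counting error in 20 of these and beyond 1.5-fold in 10. Each of the 10 held at least 1 of Smarcd3, Dpf1, Bcl7a, Smarca1, Chd3 and Chd9. These genes were called singly above, so the 10 pairs largely restate those calls. No share over pairs drawn from all genes was computed to set beside these counts. Chd3 to Chd5 had the widest shift, a log2 of -1.94 (-2.36 to -1.53), followed by Chd8 to Chd9 at 1.79 (1.68 to 1.90) and Dpf2 to Dpf1 at -1.73 (-2.57 to -0.94). Within 1.5-fold lay the pairs of the ATPases (Smarca4 to Smarca2, 0.38, 0.25 to 0.50), of the scaffolds (Smarcc1 to Smarcc2, 0.16, 0.03 to 0.29) and of the Arid1 subunits (0.19, 0.07 to 0.32). The order of the pair per kilobase differed between the libraries for Chd4 to Chd3, for Chd8 to Chd9 and for Chd1 to Chd2, but the balance of the last pair differed by less than counting error (log2 0.04, -0.13 to 0.20).

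**Figure D5:**
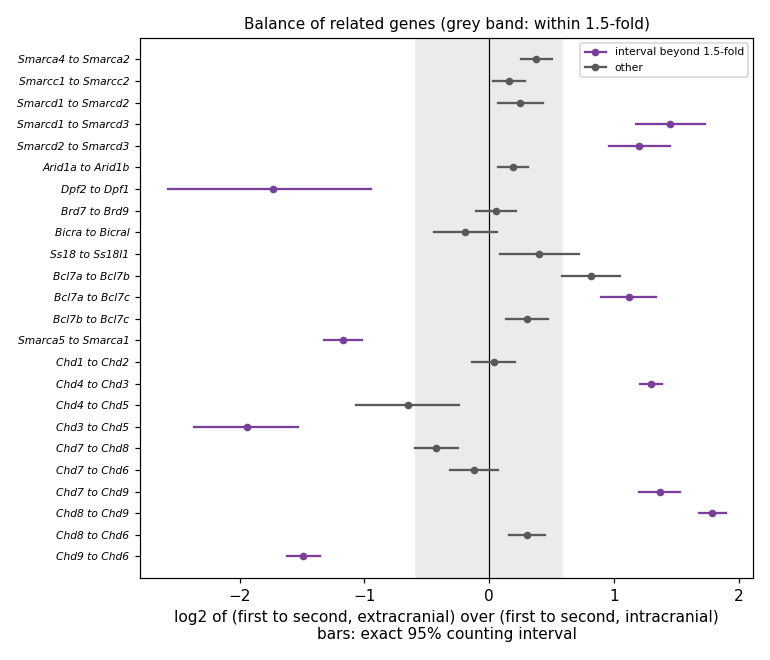
Difference in balance between the libraries for the 24 pairs with a ratio, as the log2 of the first to the second gene in the extracranial over the same in the intracranial library, with exact 95% counting intervals. The 10 purple pairs lie wholly outside the grey 1.5-fold band, and pairs that share a gene are not independent.

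Few of the subunits that work with these motors, or of other ATPases of the SNF2 family, were called. Of 61 genes in 4 lists, 2 were called, both higher in the extracranial library, against the background of 23.8% given above. None of the 12 NuRD partners was called, and they spanned log2 ratios from -0.29 (Mbd2, 4016 and 2523 counts) to 0.22 (Mbd3, 2681 and 2402). Among 9 ISWI partners, 1 was called, Cecr2, a bromodomain protein, with 54 and 95 counts (1.19, 0.69 to 1.70), and Baz2b was the lowest at -0.34. None of the 26 partners of INO80, SRCAP and TIP60 was called, from Mrgbp at -0.39 to Mcrs1 at 0.66 (0.55 to 0.78). Of 14 other SNF2-family ATPases, 1 was called, Smarcal1, which protects stalled replication forks, with 1738 and 2201 counts (0.72, 0.63 to 0.81), and Ercc6 was the lowest at -0.36. Chd3, at -0.91, thus lay below each of the 12 NuRD partners on this scale.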

How the data were processed

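Bulk RNA-seq counts of 2 mouse rhabdoid tumors, grouped by the localization label, were used. Directional libraries were made from poly(A) RNA and read from 1 end. The authors aligned with STAR 2.7.9a and deposited raw featureCounts counts per Ensembl gene, with no normalization. The build was GRCm39 per the labels. Whether strand was used was not given in the sources used here, so counts of overlapping genes are uncertain.

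Symbols came from a table of Ensembl IDs and were found for 52083 IDs. Exon lengths, overlaps and biotypes came from GENCODE M21, which is older than the annotation counted on. Scaling used TMM of edgeR 4.0.16, with factors of 1.006 and 0.994. Levels were given Clopper-Pearson intervals, ratios conditional exact binomial intervals and pairs exact conditional (Fisher) intervals, computed with scipy 1.17.1. Counts of 3 or fewer were set to 3 in ratios, but not in intervals. With 1 library per location no test across genes could be fitted, and no molecular identifiers were used, so intervals and floors cover counting error only. The procedures were tested on simulated counts. The members, lists, pairs and limits were chosen with earlier results of these data known. Named were all members, the ends of each partner list, and marker lists by sums. The cell type lists held markers of neurons, Schwann cells, brain glia, muscle, keratinocytes, macrophages, T cells, B cells, endothelium and proliferation. Alternatives were DESeq2 1.42.0 size factors, total counts, upper quartile scaling, the members' own sum, other limits on fold and counts, protein-coding genes, the longest transcript, prior counts and a Wald interval.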

Additional observations from a re-analysis of the deposited data

How the results depend on the processing

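No paired analysis was possible because there was a single library on each side, and for the same reason no library could be left out in turn. The 4 other scalings shifted every log2 ratio by -0.02 to 0.04 and left the count of 8 called members, 5 and 3 by direction, as it was, which says little, since so small a shift can move few genes. Over all genes tested, where scaling to the members' own sum was not run, the other 3 gave 5223 to 5234 called genes against 5231. Signs of Arid2 and Chd1, both within counting error, changed with scaling. Other limits moved the counts by construction. An interval excluding 1-fold gave 13500 genes and 26 members, an interval beyond 2-fold 3434 genes and 2 members, and one beyond 4-fold 1581 genes and 0 members, while the ratio alone, with no interval, passed 1.5-fold for 9215 genes and 8 members. With 100 or more counts, 7 members were called, without Dpf1. With the longest transcript as length, the median level of the members was 6.70 in place of 4.60 CPM per kilobase in the intracranial library and 7.82 in place of 5.27 in the extracranial one, since that length is shorter, and the order of 1 pair, Chd1 to Chd2, changed. Depth limits Actl6b, Dpf3 and Srcap, and Dpf1 to a wide interval.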

Other observations

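Among the markers of the other cells in the tumor pieces, T cell genes summed to 23.4 and 45.4 CPM in the intracranial and extracranial library, with 5 of 10 called higher in the extracranial library and 1, Il7r, called higher in the intracranial one, while the intervals of Cd3d, Cd3e and Cd3g all spanned 1-fold. Endothelial genes summed to 198.8 and 342 CPM, with 6 of 8 called higher in the extracranial library. Of the glial markers, Olig2 had 0 counts in both libraries, and the whole list of astrocyte and oligodendrocyte genes came to 8.26 and 3.25 CPM. Of the Schwann cell markers, Sox10 had 43 and 0 counts, while Egr2 had 630 and 2396.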
